A study of Mus musculus with 1479 samples.

Results

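Cluster 1 of the mouse urinary bladder held 7.10% of 1479 single cells. Its members are the cells that carry the cluster label 1, which was assigned by the authors on the expression values analysed here. Cells went singly into plate wells and were sequenced with Smart-seq2, a method that amplifies full-length cDNA. All cells came from adult male mice of 10 to 20 weeks on a C57Bl6/J background, and were sorted as cells positive for a mesenchymal reporter or antibody and negative for the endothelial protein CD31. The labels give 6 plates and 5 mouse lines. PdgfrbGFP mice carry green fluorescent protein under the control of the Pdgfrb gene, PdgfraGFP mice carry it in the nucleus under Pdgfra and Acta2GFP mice under Acta2. Elastase was added when the tissue of Acta2GFP mice was digested. Cspg4dsRED mice carry a red fluorescent protein under Cspg4, and C57BL6 mice carry no reporter. Mouse line and plate together define 8 groups, and cluster 1 cells were found in 6 of them. PdgfrbGFP mice gave 84 of the cluster 1 cells in 3 groups of 43, 33 and 8 cells, each on a different plate, and these groups are named below by their cell number. C57BL6 mice gave 9 cells, Acta2GFP mice 7 cells from the plate that also held the 8 PdgfrbGFP cells, and PdgfraGFP mice 5. A sort for a reporter favours cells that use the reporter gene, and the labels name no animal, and the number of mice behind each group is not given in the sources used here. No pair of cells held identical counts.

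Fibroblasts build and turn over the collagens, proteoglycans and glycoproteins of connective tissue. In the bladder they lie beneath the urothelium, in the deeper mucosa and between the bundles of the detrusor muscle. They are also a known source of complement proteins, of Wnt and BMP ligands that signal to epithelium and muscle, and of proteins that bind bacterial or lipid cargo outside the cell.

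The share of cells labelled cluster 1 differed between groups. It was 12.6% (exact 95% interval 8.83 to 17.2) on the plate of the PdgfrbGFP group of 33 cells and 11.8% (8.66 to 15.5) on that of the group of 43 cells, against 4.37% (1.91 to 8.43) among the PdgfrbGFP cells of the plate with the group of 8 cells. Thus 1 line gave different shares on different plates. The other groups with such cells lay between 3.40% and 5.43%. No Cspg4dsRED cell was in cluster 1, which allows a share of up to 1.69% on the larger of their 2 plates and of up to 11.5% on the smaller, where there were 26 such cells, with 3 cells taken as the limit. The exact 95% interval, as drawn for all groups, reaches 2.06% and 13.2%. These intervals and limits cover counting error only, and the shares also depend on the gate of each sort. The group of 43 cluster 1 cells lay in 16 of 16 rows and 22 of 24 columns of wells.

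**Figure D1:**
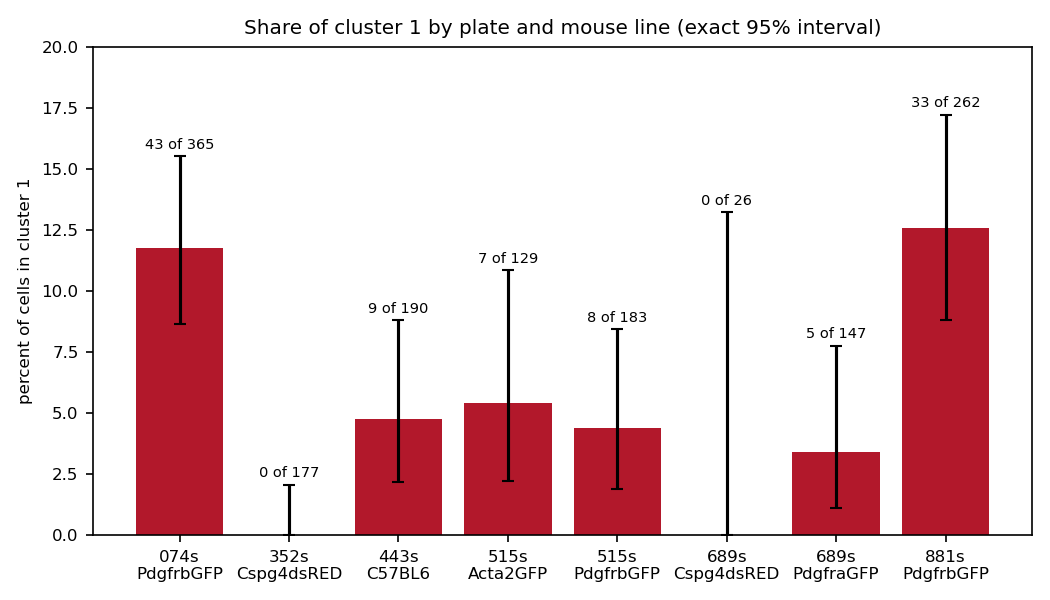
Percent of cells in cluster 1 (y axis) for the 8 combinations of plate and mouse line (x axis). Bars are shares, whiskers exact 95% intervals, and the numbers above give cluster 1 cells of all cells. The shares of 12.6% and 11.8% belong to the PdgfrbGFP groups of 33 and 43 cells, and the Cspg4dsRED groups have none.

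Depth per cluster 1 cell ran from 53015 to 886021 reads with a median of 299131, and genes detected from 2586 to 9244. Cluster 1 was set against clusters 2, 3, 6, 7 and 8 of the same plate and line, and 4 technical measures were compared over the groups. The median log2 depth of cluster 1 minus that of the other cells was −0.03 ± 0.13 (SD, n = 6 groups; two-sided exact sign-flip permutation test, adjusted p = 1.0). Genes detected after thinning every cell to 50000 reads differed by −5.17 ± 149.1 (exact permutation, adjusted p = 1.0), and the log2 ratio of endogenous to spike-in reads by −1e-05 ± 0.34 (exact permutation, adjusted p = 1.0). The mitochondrial share differed by −0.086 ± 0.113 percentage points (exact permutation, adjusted p = 0.62). The smallest p that 6 groups allow is 0.031, and p-values were adjusted over these 4 measures, so that a difference in 1 measure alone could not have passed the threshold. The means and their spread are therefore given as a description.

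The label fibroblast was checked against marker genes. All 10 fibroblast markers had reads, and in cells thinned to 50000 reads each was detected in 88 or more of the cluster 1 cells. Col1a1 and Col1a2, the chains of type I collagen, the proteoglycans Dcn and Lum, the glycoprotein Fbln1 and the surface protein Cd34 had reads in every cell of the cluster. The summed level of the list was 15288 to 24283 reads per 500000 endogenous reads of a cell over the 6 groups, against 14877 to 20635 in the other clusters. The 9 mural markers summed to 29.6 to 96.8 in cluster 1 and 73.2 to 223.2 in the other clusters. Sums for the 7 markers of sub-epithelial fibroblasts were 28.2 to 146.8 and 115.7 to 228.1, and for the 6 endothelial markers 7.89 to 45.4 and 48.3 to 77.3. The authors had already removed cells with endothelial or immune signatures and cells with neither Pdgfra nor Pdgfrb, so low sums of such markers were set in part by that filter. The 7 leukocyte markers summed to 4.62 to 18.9 and 2.80 to 12.2, and Ptprc, the common leukocyte antigen, had no read in cluster 1. Urothelial markers reached at most 38.5 in cluster 1 and 39.1 in the other clusters, mesothelial markers 3.89 and 32.3, Schwann markers 2.83 and 1.69, and erythroid markers 0.589 and 2.35. Sox10, Msln, Lrrn4 and Hba-a1, markers of glia, mesothelium and red cells, had no read in cluster 1. None of the marker genes of other cell types was called against the mean of the 5 clusters, while the sub-epithelial marker Bmp5 was lower against cluster 7 alone (−6.10) and the endothelial Kdr and the mesothelial Wt1 against cluster 8 alone (−5.32 and −5.79). The lower mural, sub-epithelial and endothelial sums went with cluster 1 in 5, 5 and 6 of the 6 groups, and their part in the results was not tested.

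For the comparison of expression, the counts of each cluster were summed within a plate and line, and cluster 1 was set against the mean of clusters 2, 3, 6, 7 and 8 with the group as a block. Calls needed an edgeR adjusted p under 0.05 together with a log2 fold change of 1 or more in either direction. Of 14151 genes tested, 35 were called, which is 0.247%, with 29 higher and 6 lower. DESeq2 called 2.13% of the genes, and 42.7% of these were higher and 57.3% lower, so the balance of higher over lower calls turned round with that tool. It stayed on the higher side with cells thinned to 50000 reads (42 higher, 14 lower) and with the median gene moved to 0 (41 and 4). The higher genes included those of the complement proteins Cfb and C4b, the Wnt ligands Wnt2 and Wnt2b, the leptin receptor Lepr, the lipopolysaccharide-binding protein Lbp and the transcription factor Stat3. The lower genes were Pla1a, Cilp, Spon2, Tppp3, Fbln2 and Ccn2. In 29 of the 35 the log2 difference between cluster 1 and the mean of the other clusters' log2 levels had the same sign in all 6 groups. This held for 979 of all 14151 genes, and a shared sign is partly built in for genes called on the same sums. The 29 include the 9 Ugt1a genes described further on, which share reads. Over all tested genes the log2 fold change had a median of −0.16 and quartiles of −0.74 and 0.39. Since the labels rest on these same values, the test only describes how far a difference repeats over the groups. Its p-values measure the spread left in the sums of cluster 1 and the 5 others after the block and the cluster means. The test has 24 residual degrees of freedom, but the sums come from 6 groups. Of these, 3 are of the PdgfrbGFP line and 2 are from 1 plate, and the spread left may be technical. When the counts were summed per mouse line instead, which leaves 4 lines, edgeR called 0 genes, with 830 at an unadjusted p under 0.05. Without the PdgfrbGFP group of 33 cells, edgeR called 15 genes. Without the block 16 of the 35 were still called, and those lost were C4b, Lepr, Apoe, Podn, Ccn2, Tppp3, Calhm2, Frmd5, Gm10517, Gm20518 and the Ugt1a genes described further on. The fold change averages log2 levels over the 5 clusters, so that a cluster with few reads weighs as much as the others. With the 5 clusters pooled into 1 sum per group, 9 of the 34 called genes that could be tested were still called, which were Cfb, Gm20547, Lbp, Apoe, Podn, Gpnmb, Pla1a, Cilp and Spon2. In that fit Wnt2 had 1.18, Wnt2b 1.68, C4b 1.86, Lepr 2.38 and Stat3 1.24, none of them called (edgeR adjusted p = 0.0825, 0.186, 0.146, 0.0868 and 0.13).

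**Figure D2:**
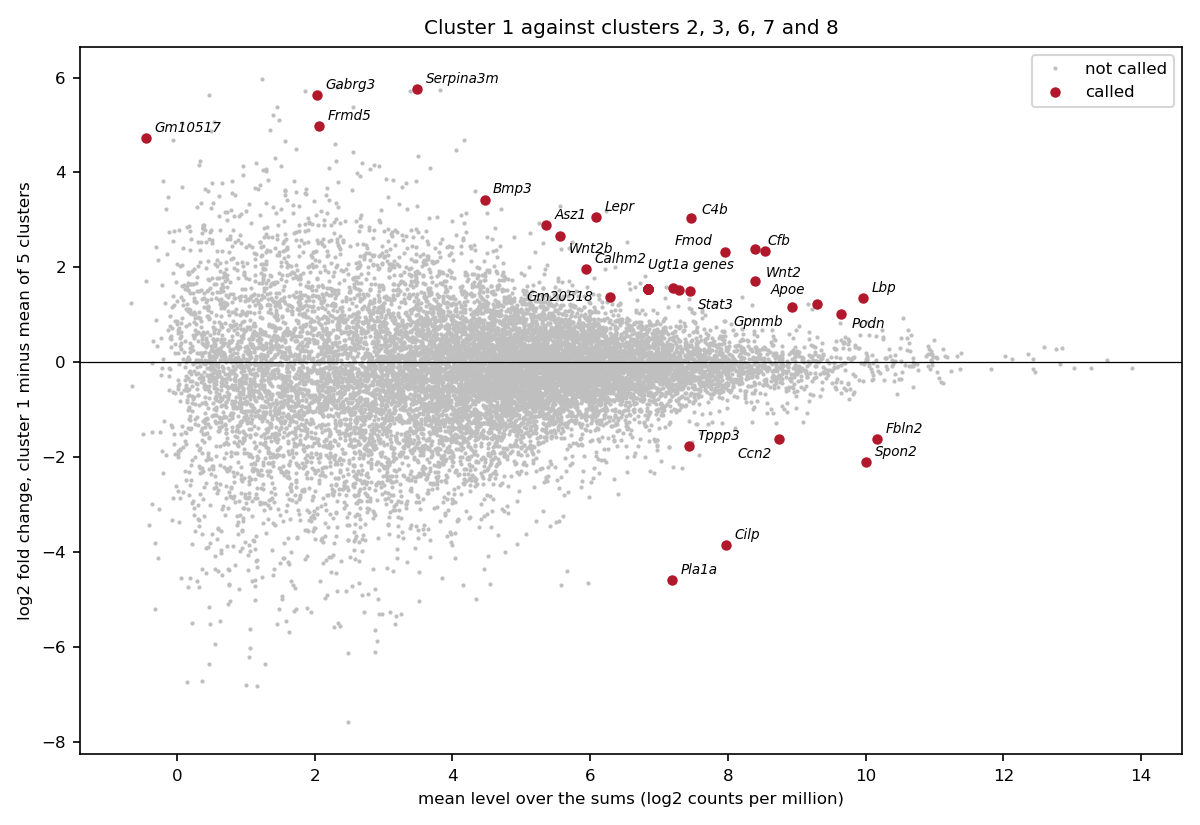
Log2 fold change of cluster 1 against the mean of the 5 other clusters (y axis) by the mean level over the sums in log2 CPM, counts scaled to the library size (x axis). Each point is 1 of 14151 genes, and the 35 called genes are red. The 6 called genes below 0 are Pla1a, Cilp, Spon2, Tppp3, Fbln2 and Ccn2.

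Complement genes and Lbp were among the higher genes. Cfb encodes factor B, the protease precursor of the alternative complement pathway, and lies on chromosome 17 at 34856374 to 34862518 (GRCm38, minus strand). Its level over the 6 groups had a lowest value of 354, a median of 475 and a highest value of 661 reads per 500000 in cluster 1, against 63.7, 115.3 and 140.6 in the mean of the other clusters. The ranges did not overlap, and every group of cluster 1 was higher. The fitted log2 fold change was 2.39 ± 0.40 (SE; edgeR adjusted p = 0.00199), and the call held without each group in turn. The annotated gene Gm20547 shares exons with Cfb and with the neighbouring C2 on the same strand, and was called with 2.34 ± 0.38 (edgeR adjusted p = 0.00199). Its reads cannot be told from those of Cfb and C2, so the pair counts as 1 locus. C2, the factor that pairs with C4 in the classical pathway, had 2.00 ± 0.55 and missed the threshold (edgeR adjusted p = 0.158).

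C4b encodes complement component 4, which the classical and lectin pathways cleave. It lies on the same chromosome at 34728380 to 34743882 (minus strand), and the near-identical C4a could share its reads, so its counts are uncertain to that extent. Its levels were 74.6, 184.7 and 401 (lowest, median and highest of 6 groups) in cluster 1 and 17.2, 69.7 and 170 in the other clusters, so the ranges overlapped although cluster 1 was higher within each group. The log2 fold change was 3.03 ± 0.61 (edgeR adjusted p = 0.00997). It was 2.25 without the Acta2GFP group (edgeR adjusted p = 0.0861) and 2.94 without the PdgfrbGFP group of 33 cells (edgeR adjusted p = 0.133), so the call needed both groups. C3, the central component of the cascade, was not called, with −0.43 ± 0.35 (edgeR adjusted p = 0.749). Of 21 complement genes, 16 could be tested and these 2 were called, and the median log2 fold change of the 16 was 0.32. C1ra, a protease of the first complement complex, passed the adjusted p (edgeR, 0.0428) with a log2 fold change of 0.67, under the size limit.

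Lbp encodes a secreted protein that carries lipopolysaccharide to its receptors (chromosome 2, 158306493 to 158332852, plus strand). Its levels were 574, 1110 and 1683 in cluster 1 and 331.8, 429 and 470 in the other clusters, without overlap. On the log2 scale the fold change was 1.35 ± 0.22 (edgeR adjusted p = 0.00199), and the call held without each group. Stat3, whose exons overlap those of Stat5a on the opposite strand, encodes a transcription factor that acts downstream of cytokine receptors of the interleukin-6 family and of the leptin receptor (chromosome 11, 100885098 to 100939540, minus strand). Its levels were 81.3, 152.6 and 284.9 in cluster 1 against 42, 75.1 and 105.2, and in the PdgfrbGFP group of 43 cells they were 108.3 and 105.2. It had a log2 fold change of 1.51 ± 0.29 (edgeR adjusted p = 0.00868). It lost its call without the C57BL6 group (1.38, edgeR adjusted p = 0.093) and without the PdgfrbGFP group of 8 cells (1.48, edgeR adjusted p = 0.0804). Singly Stat3 was called against cluster 2 only (2.38), with 1.08 to 1.54 and no call against clusters 3, 6, 7 and 8. Serpina3m, a secreted serine protease inhibitor of a family of close copies whose exons overlap those of Serpina3k, had a large fitted log2 fold change of 5.75 ± 1.08 (edgeR adjusted p = 0.00692). Its level in cluster 1 was at 0 in the Acta2GFP group and reached 68.6 in the PdgfrbGFP group of 8 cells, against 0.12 to 5.48 in the other clusters. It lost its call without the PdgfrbGFP group of 8 cells (5.17, edgeR adjusted p = 0.0983), without the PdgfraGFP group (4.80, edgeR adjusted p = 0.0848) and without the PdgfrbGFP group of 33 cells (6.02, edgeR adjusted p = 0.079).

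Genes of secreted signals and their receptors formed the next group. Wnt2 encodes a ligand of the Wnt pathway (chromosome 6, 17988940 to 18030585, minus strand). Its levels were 233.5, 340 and 484 in cluster 1 and 90.7, 150 and 187.7 in the other clusters, without overlap. The log2 fold change was 1.72 ± 0.31 (edgeR adjusted p = 0.00579), and 1.58 without the C57BL6 group, where the call was lost (edgeR adjusted p = 0.0811). Asz1, a germ cell gene that lies beside Wnt2 on the same strand (18050964 to 18109061), was called with 2.90 ± 0.64 (edgeR adjusted p = 0.0338). Its levels of 10.8, 46.1 and 73.5 stood against 4.99, 15.6 and 34.3, and in the PdgfrbGFP group of 8 cells the mean over cells was lower in cluster 1 (10.8 against 12.8), while the difference of log2 levels was 2.85. It stayed called only when the Acta2GFP group was left out, and had edgeR adjusted p values of 0.0664 to 0.194 without each other group. Singly Asz1 was called against cluster 6 only. Against cluster 7 it had −0.89 (edgeR adjusted p = 0.95), with mean levels of 77.5 in cluster 7 and 45.1 in cluster 1. The annotated exons of Asz1 and Wnt2 do not overlap.

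Wnt2b encodes a further Wnt ligand (chromosome 3, 104945272 to 104961921, minus strand). Its levels were 27.4, 44.8 and 128.6 in cluster 1 and 8.80, 15.5 and 41.9 in the other clusters. Cluster 1 was higher within every group, most clearly in the Acta2GFP group with 108.7 against 8.80. Its log2 fold change was 2.65 ± 0.52 (edgeR adjusted p = 0.00868). Without that Acta2GFP group it was 2.17 (edgeR adjusted p = 0.0548), and without the PdgfrbGFP group of 33 cells 2.77 (edgeR adjusted p = 0.0647), neither a call. Of 29 genes of Wnt ligands, R-spondins and antagonists, 17 could be tested and these 2 were called, with a median of 0.23 over the 17. The antagonist Dkk3 had 0.83 (edgeR adjusted p = 0.141).

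Lepr encodes the leptin receptor (chromosome 4, 101717404 to 101815352, plus strand). Its levels were 68, 104.2 and 145.2 in cluster 1 and 13.3, 19.8 and 40.6 in the other clusters, without overlap, and the log2 fold change was 3.06 ± 0.57 (edgeR adjusted p = 0.00681). The call was lost without the PdgfrbGFP group of 43 cells (2.97, edgeR adjusted p = 0.0678) and without the PdgfrbGFP group of 33 cells (3.17, edgeR adjusted p = 0.0647). Singly Lepr was called against cluster 6 only (5.15), with 1.92 to 3.00 and no call against clusters 2, 3, 7 and 8. Bmp3, a member of the BMP family, had levels of 0.355, 22.8 and 43.9 against 3.41, 7.98 and 13.6. It was lower than the other clusters in the PdgfraGFP group and higher in the other 5 groups. Its log2 fold change was 3.43 ± 0.58 (edgeR adjusted p = 0.00248), and the call held without each group. With the 5 clusters pooled into 1 sum per group it fell to 0.95 and was not called (edgeR adjusted p = 0.752), and against cluster 7 alone it had −0.77. It was the only gene called among 26 tested BMP ligands, antagonists and receptors, whose median was −0.76. Csf1, the macrophage growth factor, had 1.58 ± 0.41 and missed the threshold (edgeR adjusted p = 0.109), although it was higher in all 6 groups.

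**Figure D3:**
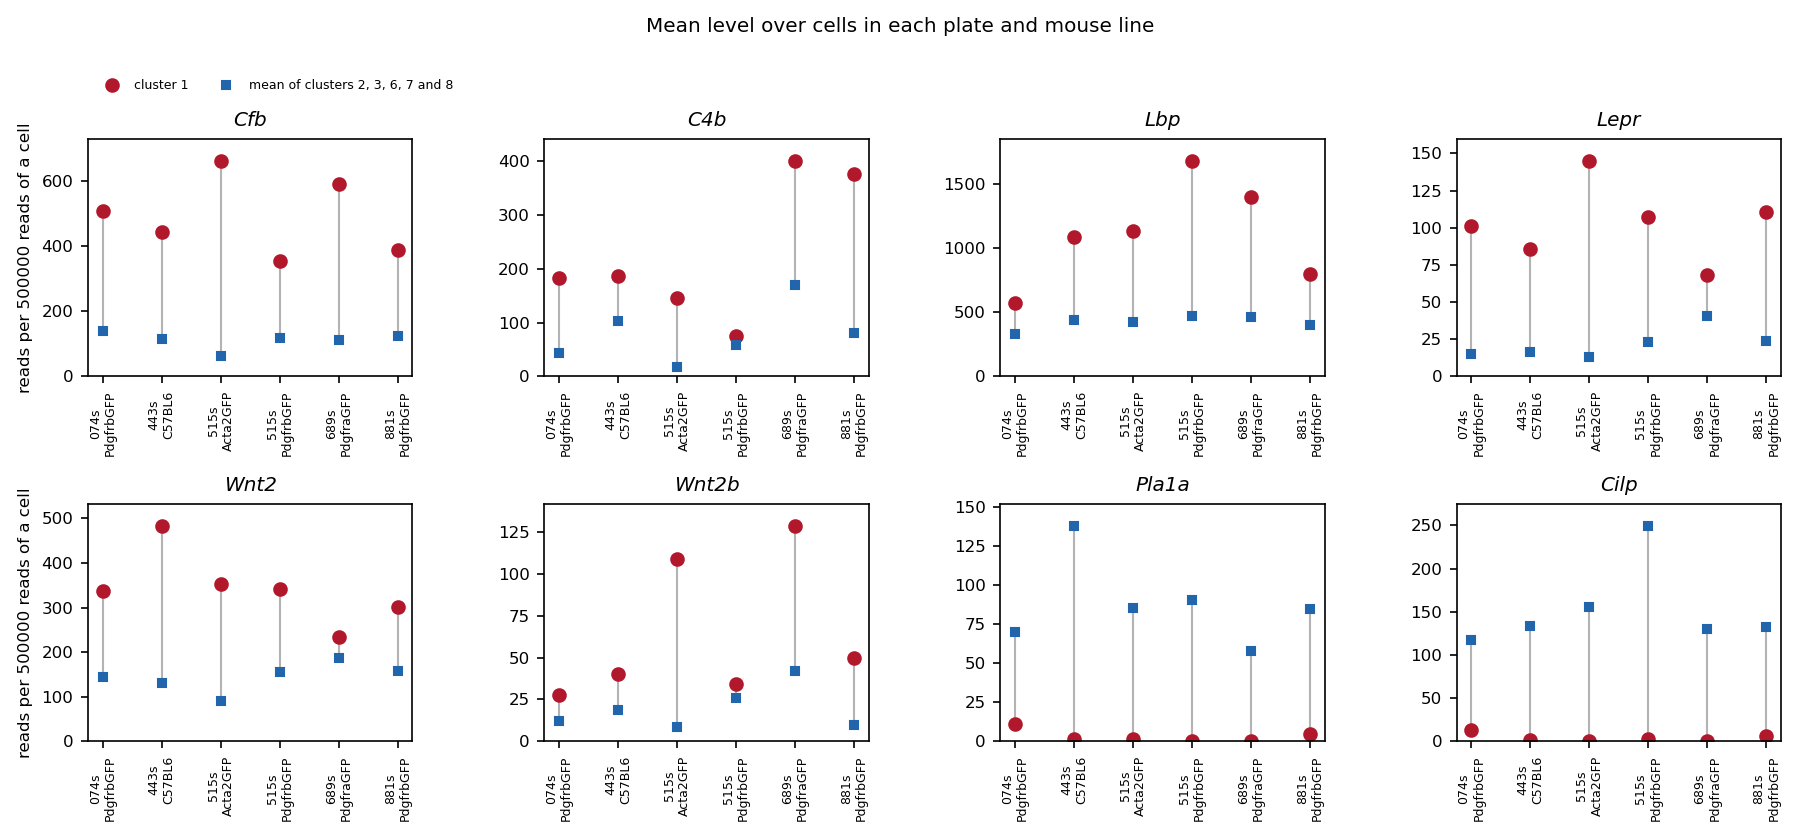
Mean level in reads per 500000 endogenous reads of a cell (y axis, from 0) for 8 genes in the 6 groups of plate and mouse line (x axis). Red circles are cluster 1, blue squares the mean of clusters 2, 3, 6, 7 and 8, joined by a grey line. The circle lies above the square in all groups for Cfb, C4b, Lbp, Lepr, Wnt2 and Wnt2b and below it for Pla1a and Cilp.

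Matrix and lipid genes were also among the higher ones. Apoe encodes apolipoprotein E, a carrier of lipid. Its levels were 168.7, 487 and 851 in cluster 1 and 107.7, 333.3 and 478 in the other clusters, and in the PdgfrbGFP group of 43 cells the mean over cells was lower in cluster 1 (437 against 478), while the difference of log2 levels was 0.18. The log2 fold change was 1.22 ± 0.22 (edgeR adjusted p = 0.00591), or 1.12 with the call lost when the PdgfrbGFP group of 8 cells was left out (edgeR adjusted p = 0.0545). With cells thinned to 50000 reads Apoe had 0.95 and missed the size limit (edgeR adjusted p = 0.016), and without the block it had 1.22 (edgeR adjusted p = 0.0747). Fmod and Podn encode fibromodulin and podocan, small leucine-rich proteoglycans that bind collagen. Fmod had levels of 6.67, 224.6 and 595 against 40.1, 110 and 162.3, and in the PdgfraGFP group it was lower in cluster 1. Its log2 fold change was 2.33 ± 0.52 (edgeR adjusted p = 0.0376), and it stayed called only when the PdgfraGFP group was left out, with edgeR adjusted p values of 0.0593 to 0.167 without each other group. Against cluster 8 alone Fmod had −0.59 (edgeR adjusted p = 0.94), with mean levels of 372.7 in cluster 8 and 269.5 in cluster 1. Podn had levels of 419, 638 and 1096 against 262.6, 349 and 414, and a log2 fold change of 1.03 ± 0.22 (edgeR adjusted p = 0.0221), which was called in 1 of 6 fits with a group left out. It was not called with cells thinned to 50000 reads or without the block. Dcn, the proteoglycan decorin, had −0.04 ± 0.07. Gpnmb, a membrane glycoprotein, had levels of 238.3, 460 and 671 against 159.2, 189.3 and 273.3 and a log2 fold change of 1.16 ± 0.22 (edgeR adjusted p = 0.00692). It was not called without the C57BL6 group (edgeR adjusted p = 0.0916) or without the PdgfrbGFP group of 8 cells (edgeR adjusted p = 0.0593). Against cluster 8 alone Gpnmb had −0.016 (edgeR adjusted p = 0.996).

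A further 9 of the 29 higher genes belong to the Ugt1a locus on chromosome 1, which makes enzymes that add glucuronic acid to bilirubin, hormones and drugs. Its genes have their own first exons and share the last ones, and 6 of the 8 other rows equalled the row of Ugt1a1 in at least 97% of the 1479 cells. These 7 rows thus held nearly the same reads. Ugt1a6a and Ugt1a7c held more, with 56959 and 61619 reads against 45478 for Ugt1a1, and equalled it in 51% and 44.6% of cells. Since most of their reads could still come from the shared exons, the 9 rows are counted as 1 locus, and the share of each member was not resolved. Ugt1a6a (88134809 to 88218997, plus strand) had 1.57 ± 0.30 (edgeR adjusted p = 0.00722), with levels of 74.4, 131.4 and 293.3 against 29.1, 60.1 and 92.6. The calls of the locus were lost without the PdgfraGFP group and without the PdgfrbGFP group of 33 cells, where Ugt1a6a had edgeR adjusted p values of 0.0854 and 0.0647. Singly Ugt1a6a was called against clusters 6 and 8 only. Against cluster 7 it had 0.37 (edgeR adjusted p = 0.951), with mean levels of 140.9 in cluster 7 and 146.7 in cluster 1. Calhm2, a subunit of a large-pore channel, had 1.96 ± 0.45 (edgeR adjusted p = 0.0428), shares exon bases with Pdcd11 on the opposite strand, and stayed called in 1 of 6 fits with a group left out. Singly Calhm2 was called against cluster 2 only, with 3.94. Gm20518, which shares exons with Dgcr2 and Car15, had 1.37 ± 0.31 (edgeR adjusted p = 0.0385) and was likewise called in 1 of 6 fits with a group left out. It was not called with cells thinned to 50000 reads. The value of 1.37 came mainly from cluster 2, against which Gm20518 had 4.35, compared with 0.56 to 0.66 and no call against clusters 3, 6, 7 and 8 (edgeR adjusted p = 0.774 to 0.891). The 3 remaining higher genes were found in few cells. Gabrg3, a subunit of a GABA receptor, had a read in 7.62% of thinned cluster 1 cells, Frmd5 in 8.57% and the unclassified transcript Gm10517 in 2.86%. Their fitted log2 fold changes of 5.63, 4.97 and 4.72 rest on few reads, and Frmd5 and Gm10517 had reads in cluster 1 in 4 of 6 groups. Frmd5 lost its call without the PdgfrbGFP group of 43 cells, without the C57BL6 group and without the Acta2GFP group, with edgeR adjusted p values of 0.179, 0.185 and 0.164, while Gm10517 had enough reads to be tested in only 2 of the 6 fits with a group left out, and lost its call in 1 of them, without the PdgfraGFP group (edgeR adjusted p = 0.0538). Gm10517 was also not called with no filter on low counts (edgeR adjusted p = 0.061), with DESeq2 (adjusted p = 0.241) or without the block (edgeR adjusted p = 0.202).

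Among the lower genes the largest difference was that of Pla1a, a secreted phospholipase that acts on phosphatidylserine (chromosome 16, 38396117 to 38433145, minus strand). Its levels in cluster 1 were 0, 1.29 and 11.3, against 57.9, 85 and 138.1 in the other clusters. All groups of cluster 1 lay far below the other clusters. The log2 fold change was −4.60 ± 0.76 (edgeR adjusted p = 0.00199), and the call held without each group. Cilp encodes a matrix protein of cartilage and connective tissue that binds TGF-beta (chromosome 9, 65265180 to 65280605, plus strand). Its levels were 0.355, 1.87 and 13.2 in cluster 1 and 117.05, 132.7 and 250 in the other clusters, without overlap, with a log2 fold change of −3.85 ± 0.68 (edgeR adjusted p = 0.00467). Spon2 encodes a secreted matrix protein of the spondin family (chromosome 5, 33198184 to 33218455, minus strand). Its levels were 23.6, 111.9 and 266.3 against 433, 545 and 862, also without overlap, and its log2 fold change was −2.11 ± 0.34 (edgeR adjusted p = 0.00199). The calls of Cilp and Spon2 held without each group.

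Fbln2, Ccn2 and Tppp3 were lower in all 6 groups but less firmly so. Fbln2 encodes fibulin 2, a glycoprotein of elastic fibres and basement membranes and one of the 10 fibroblast markers. Its levels were 7.20, 192.9 and 340 against 486, 624.8 and 840, and the PdgfraGFP group was the lowest. It had a log2 fold change of −1.62 ± 0.34 (edgeR adjusted p = 0.0166). The call was lost without the C57BL6 group (edgeR adjusted p = 0.075), without the Acta2GFP group and the PdgfrbGFP group of 8 cells (0.0582 and 0.102) and without the PdgfrbGFP group of 33 cells (0.117). Ccn2, a matricellular protein and a target of TGF-beta and of the Hippo pathway, had levels of 16.9, 81 and 143.5 against 160, 216.2 and 384 and a log2 fold change of −1.61 ± 0.37 (edgeR adjusted p = 0.0428). It overlaps Gm15270 on the opposite strand, and no strand setting is given for the counting. Tppp3, a protein that binds microtubules, had 2.37, 23.8 and 43.3 against 51.2, 95.8 and 144.4 and a log2 fold change of −1.76 ± 0.39 (edgeR adjusted p = 0.0345). Without each group other than the Acta2GFP group, neither gene was called, with edgeR adjusted p values of 0.134 to 0.206 for Ccn2 and 0.0789 to 0.188 for Tppp3. They were also the genes that lost their calls with the median gene moved to 0 (edgeR adjusted p = 0.0659 for Ccn2 and 0.0521 for Tppp3), and neither was called with the 5 clusters pooled (0.0647 and 0.134).

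Gene lists for fibroblast functions held few calls against the mean of the 5 clusters, and these counts stand against 0.247% of all genes. Besides the lists above, 2 of 16 tested matricellular genes were lower, Cilp and Spon2, and none was higher, with a median of −0.40. Of 18 adipogenic and lipid genes, 2 were higher, Lepr and Apoe (median 0.26), and of 10 small leucine-rich proteoglycans 2 were higher (median 0.08). Of 20 markers of adventitial fibroblasts that are found in many organs, Wnt2 was called higher and none was called lower (median −0.21). Pi16, a surface protein of such cells, had 0.13 ± 0.16 (edgeR adjusted p = 0.861). At an unadjusted edgeR p under 0.05, 2 of these 20 were higher and 7 lower, against 1340 of all 14151 genes in either direction. Of 16 elastic fibre genes Fbln2 was lower (median −0.54), and of 19 TGF-beta ligands, receptors and targets Ccn2 was lower (median −0.32). No member was called among 27 fibrillar collagen and processing genes, 10 genes of collagen VI, VIII and fibril-associated collagens, 19 basement membrane genes, 12 matrix metalloproteinases and TIMPs and 20 ADAMTS genes. Col1a1 had 0.29 ± 0.10 (edgeR adjusted p = 0.333), Col3a1 0.17 ± 0.08 (0.516), Col6a2 0.20 ± 0.11 (0.606) and Mmp2 0.04 ± 0.13 (0.957). Of 13 genes of the IGF axis none was called, and Igfbp4, which binds insulin-like growth factors, had 0.94 ± 0.18 with an edgeR adjusted p of 0.00722 and missed the size limit. Pdgfra, the receptor used to enrich fibroblasts, had −0.72 ± 0.19 (edgeR adjusted p = 0.109) and was lower in all 6 groups.

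Genes known to respond to cell isolation gave no call against the mean of the 5 clusters, and the counts that follow are for that comparison. Only 0.247% of all genes were called in it, so a list of this size would hold no call in most cases. None of 23 immediate-early genes was called, and those with most counts, Fos and Egr1, had 0.14 ± 0.12 and 0.10 ± 0.12 (edgeR adjusted p = 0.784 and 0.866). At an unadjusted edgeR p under 0.05, 4 of these 23 were lower and none higher, and of the 21 inflammatory genes 4 were higher and 3 lower. Over all genes 1340 of 14151 passed that limit. None of 13 heat shock chaperones was called, and Hspa1a had 0.49 ± 0.15 (edgeR adjusted p = 0.26). None of 21 inflammatory cytokines and chemokines passed, with Cxcl12 at 0.68 ± 0.21 (0.235), and none of 21 interferon response genes, with B2m at −0.37 ± 0.14 (0.403). No call was made among 16 cell cycle, 19 contractile, 27 Hox and urogenital factor, 10 Hedgehog, 19 FGF, PDGF and HGF, 15 steroid, 12 retinoid, 17 hypoxia and glycolysis, 18 unfolded protein response, 18 oxidative stress, 15 prostaglandin, 17 integrin and cadherin and 24 axon guidance genes. Against cluster 2 alone, where 4.62% of all genes were called, the immediate-early genes Fosl2 (−2.59, edgeR adjusted p = 0.0172) and Klf4 (−1.68, edgeR adjusted p = 0.00271) and the cytokine gene Il33 (−1.62) were lower. Of the interferon response genes, Gbp7 and H2-K1 (3.86 and 1.12) were higher there and B2m (−1.34, edgeR adjusted p = 2.78e-05) was lower.

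Cluster 1 was then set against each cluster singly, to see which clusters a difference came from. Against cluster 2, 654 genes were called (4.62%), of which 437 were lower and the rest higher. Against cluster 3 there were 15 calls (0.106%), 7 higher and 8 lower (15 and 7 with the median gene moved to 0), and against cluster 6 there were 85 (0.601%), 43 higher and 42 lower. Against cluster 7 there were 48 (0.339%), 27 higher and 21 lower (44 and 20 when so moved), and against cluster 8 there were 98 (0.693%), 27 higher and 71 lower (33 and 49 when so moved). These 5 contrasts share the cluster 1 sums. Leaving out the C57BL6 group or any of the 3 PdgfrbGFP groups lowered each of these shares by over 1.5 times in counts, to as little as 1.86%, 0.0143%, 0.294%, 0.150% and 0.221% against clusters 2, 3, 6, 7 and 8. Cluster 2 was the smallest of the 5, with 64 cells, and gave no sum in the PdgfrbGFP group of 8 cells, where it had 1 cell. The technical measures were compared with the 5 clusters pooled, so the depth of cluster 2 by itself was not compared. Only Pla1a was called in the same direction in all 5 contrasts, with log2 fold changes of −3.58, −4.66, −5.49, −5.02 and −4.23 against clusters 2, 3, 6, 7 and 8. It missed at least 1 contrast without the C57BL6 group, without the PdgfrbGFP group of 8 cells and without the PdgfrbGFP group of 33 cells. Cilp was lower against 4 clusters, with −7.43 against cluster 8 and −5.77 against cluster 6, while against cluster 7 it had 0.47 (edgeR adjusted p = 0.972).

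Cfb was higher than in clusters 2 and 6, with log2 fold changes of 2.28 and 3.75 (edgeR adjusted p = 0.0369 and 0.00113). Against cluster 3 it had 2.82 and missed the threshold (edgeR adjusted p = 0.0524), while Gm20547, of the same locus, was called there with 2.92 (edgeR adjusted p = 0.0231). Cfb had 1.36 against cluster 7 (0.541) and 1.74 against cluster 8 (0.224). C4b was higher than in clusters 3 and 6, with 5.81 and 4.69 (edgeR adjusted p = 0.00911 and 0.0127), and had 2.24 against cluster 2 (0.212), 2.08 against cluster 8 (0.437) and 0.34 ± 0.88 against cluster 7 (0.991). Wnt2 was higher than in clusters 6 and 8, with 3.94 and 2.40 (edgeR adjusted p = 3.75e-05 and 0.00709), and had −0.04 ± 0.45 against cluster 7 (0.999). Wnt2b was called against clusters 2 and 6, with 4.68 and 3.78. Apoe was higher than in clusters 2, 3 and 6, and had −0.36 ± 0.31 against cluster 8 (edgeR adjusted p = 0.873). Bmp3 was higher than in clusters 2, 6 and 8, with 4.79, 5.54 and 4.96, and had −0.77 ± 0.84 against cluster 7 (0.95). Spon2 was lower than in clusters 2, 3 and 6, with −2.65, −2.72 and −3.34.

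**Figure D4:**
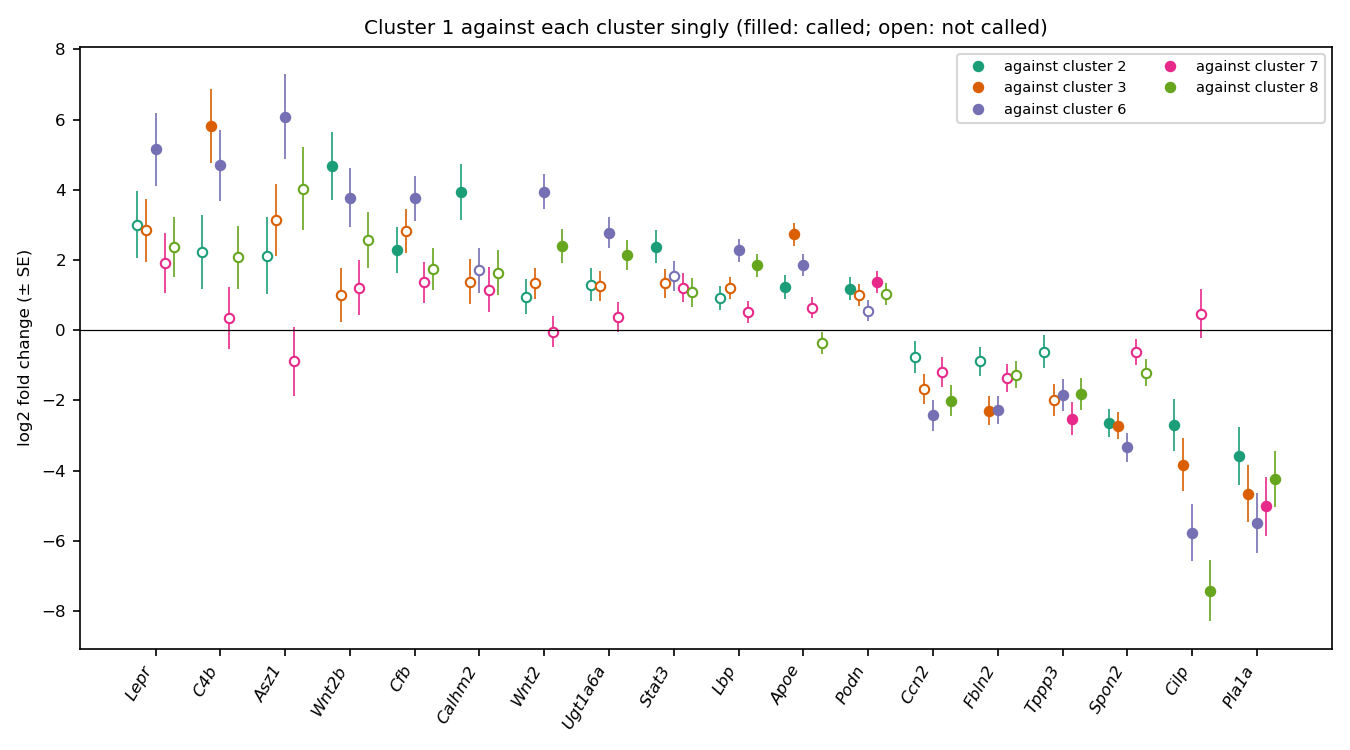
Log2 fold change of cluster 1 against each of clusters 2, 3, 6, 7 and 8 (y axis) for 18 genes called in the comparison with their mean (x axis). Circles are fitted values with bars of 1 SE, filled where the gene was called in that contrast. Pla1a is filled in all 5 contrasts, and Wnt2, C4b and Cilp lie near 0 against cluster 7.

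Further members of the gene lists were called against single clusters, and some, such as Thbs1, Postn and Igfbp4, against several. Against cluster 6, cluster 1 was higher in Timp3, an inhibitor of matrix metalloproteinases (2.75, edgeR adjusted p = 0.000126), in the Wnt modulators Sfrp2 and Dkk3 (4.08 and 1.3), in the Hedgehog-binding protein Hhip (5.57) and in Efemp1 (1.94), and lower in the thrombospondins Thbs1 and Thbs2 (−3.38 and −2.28), in Il6 (−7.43), Ltbp2 (−6.78) and Pdgfra (−1.42). Against cluster 7, it was higher in Cxcl12 (1.67), Smoc2 (1.69), Gpx3 (2.54), Apod (2.27), Igfbp4 (1.29) and the proteoglycans Fmod, Podn and Ogn (4.10, 1.36 and 1.36), and lower in Postn, Bmp5 and Fn1 (−4.34, −6.10 and −1.12). Against cluster 8, it was higher in Pi16 (1.2) and Igfbp4 (1.14) and lower in Dpp4 (−6.59), which like Pi16 is on the list of adventitial markers, in the BMP genes Gdf10 and Bmper (−4.11 and −12.2), in Thbs1 (−4.12), Postn (−5.59), Igf1 (−1.55), Col6a3 (−2.90) and the transcription factor Osr2 (−11.1). Against cluster 2, 12 entries of the lists were higher and 30 lower, among them higher Sod2 (3.86) and Meis1 (2.20) and lower Mfap5 (−1.65) and Lum (−1.01). In that contrast 4.62% of all genes were called, and 66.8% of these were lower (51.6% of the calls with thinned cells). Against cluster 3, the higher list genes were C4b and Apoe, and the lower ones included Spon2, Cilp and Fbln2. Genes on several lists are counted once per list.

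Levels over all 11 clusters place these genes among the bladder cells. Cfb had its highest mean level in cluster 1, 491 ± 119.2 reads per 500000 (SD, n = 6 groups), followed by cluster 9 with 211.7 ± 118.3 (n = 2) and cluster 7 with 201.95 ± 47.9 (n = 7), and it was 6.29 ± 7.07 in cluster 10 (n = 7), the mural cluster. Lbp had 1112 ± 399 in cluster 1 and 776 ± 172.7 in cluster 7, whose ranges overlap, and 895 in the single group of cluster 4. Wnt2 ranged over groups from 233.5 to 484 in cluster 1, from 230.7 to 593 in cluster 5 (n = 5), which the study placed beneath the urothelium, and from 162.96 to 685 in cluster 7. C4b had means of 227.99 ± 131.6, 222.4 ± 190.8 and 211.3 ± 98.2 in the same 3 clusters, whose ranges overlap. Lepr ranged from 68 to 145.2 in cluster 1, from 84.2 to 125.1 in cluster 5 and from 0 to 57.4 in cluster 7. Bmp3 and Fmod had higher means in cluster 5 (126.3 ± 17.7 and 452 ± 303.9) than in cluster 1 (24.7 ± 16.3 and 269.5 ± 196.6), and for Fmod the ranges overlap. Pla1a was lowest in clusters 4 and 1, at 2.09 and 3.16 ± 4.33, and 46.4 ± 30.1 in cluster 5. Cilp was 3.93 ± 4.96 in cluster 1, 3.12 ± 2.85 in cluster 7 and 3.23 ± 2.30 in cluster 5, against 619 in cluster 8. These levels are descriptions, as the clusters were chosen on the same values. Tnc, which marks the fibroblasts beneath the urothelium, was at 0.852 in cluster 1 and 696 in cluster 5, and Cd34 at 1143 and 99.7.

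**Figure D5:**
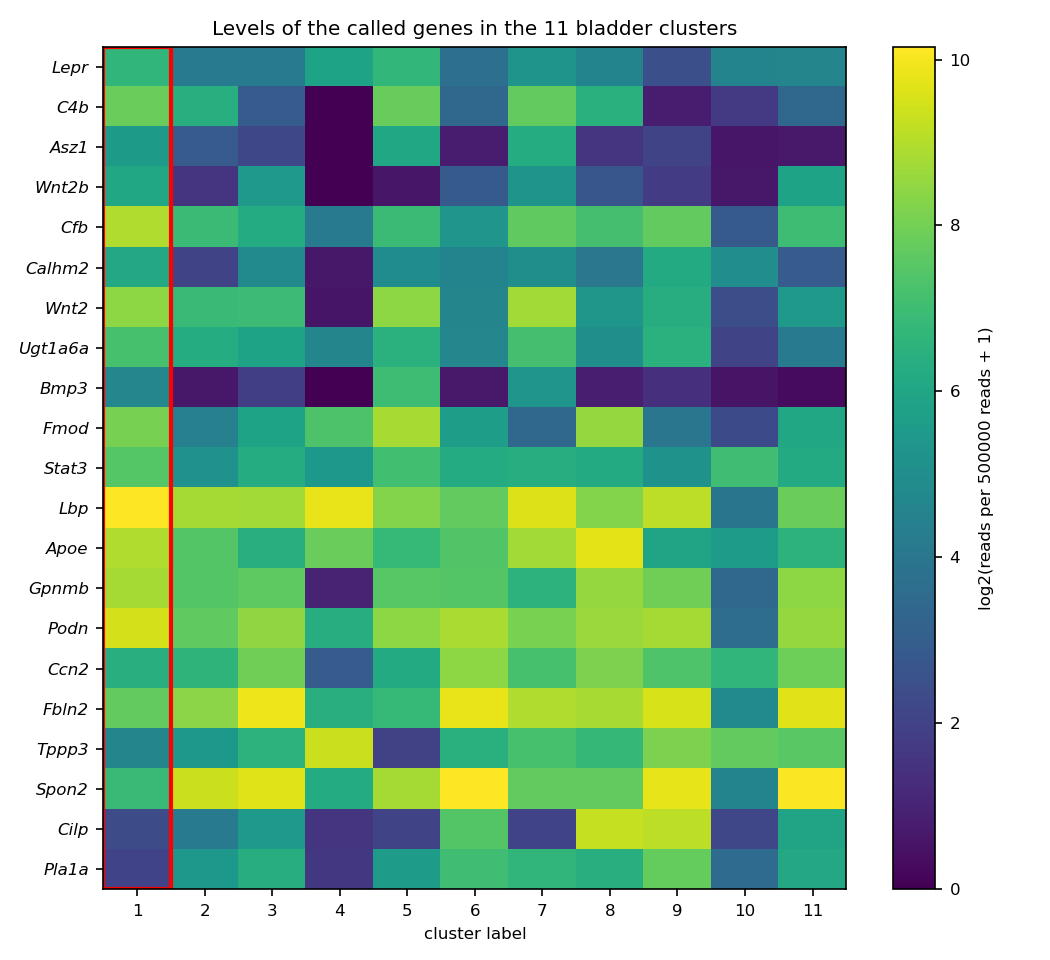
Mean levels of 21 called genes (rows) in the 11 clusters (columns), as log2 of reads per 500000 plus 1, averaged over groups with at least 3 cells. The red frame marks cluster 1. Cfb, Lbp and Podn are brightest in cluster 1, while Wnt2 and C4b are about as bright in clusters 5 and 7.

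Single cells of the cluster varied among themselves. After thinning to 50000 reads, Wnt2 had a read in 96.2% of cluster 1 cells (exact 95% interval 90.5 to 98.95) and Cfb in 91.4% (84.4 to 96), against 71.3% (68.3 to 74.1) and 60.1% (56.9 to 63.2) of 972 cells of clusters 2, 3, 6, 7 and 8. In the mural cluster 10, which serves as background, the shares were 17.6% and 15.2%. Unthinned, Cfb had a read in 97.1% of cluster 1 cells and 79.7% of the others. Lepr was found in 75.2% (65.9 to 83.1) against 22.8% (20.2 to 25.6), C4b in 67.6% (57.8 to 76.4) against 36.8% (33.8 to 39.95), and Wnt2b in 37.1% (27.9 to 47.1) against 19.9% (17.4 to 22.5). These intervals cover counting error only and take the cells as independent, although cells of a group share a plate, and detection differed between groups. Lepr was found in 40% to 84.8% of the cluster 1 cells of a group, and in 9.09% to 36.6% of the other cells. Within groups, Wnt2 was found in 85.7% or more of cluster 1 cells against 53% to 86.2% of the others, with 97% against 78.1% in the PdgfrbGFP group of 33 cells and all 43 cells against 86.2% in the largest group. Cfb was found in 75% or more of cluster 1 cells against 33.3% to 79.7% of the others, and C4b in 37.5% to 81.8% against 7.58% to 47.5%, each with the higher share in cluster 1 in all 6 groups. The gap was smallest in the PdgfrbGFP groups of 33 and 43 cells for Cfb, with 87.9% against 73.8% and 97.7% against 79.7%, and in that of 43 cells for C4b, with 62.8% against 45.9%. Wnt2b was found in 11.1% of cluster 1 cells and 17.8% of the others in the C57BL6 group, and in 25% against 23.1% in the PdgfrbGFP group of 8 cells. Pla1a was seen in 26.7% (18.5 to 36.2) of cluster 1 cells, 50.5% (47.3 to 53.7) of the cells of the other clusters and 16% of mural cells, and with 10 or more reads in 1.90% of cluster 1 cells and 25.9% of the cells of the other clusters. Cilp was seen in 33.3% and 42.2%, and with 10 or more reads in 0.952% and 15.8%. Unthinned, a read of Cilp was found in 68.6% of the cells on both sides, and of Pla1a in 67.6% and 72.9%. In the PdgfrbGFP group of 8 cells the thinned share of Cilp was 37.5% in cluster 1 and 37.1% in the others. Of the 10 higher genes with the largest fold change and the same sign in every group, a cluster 1 cell held a median of 8 (range 2 to 10) and a cell of the other clusters 5 (0 to 10). At least 5 were found in 94.3% of cluster 1 cells and 52.6% of the others. Within the PdgfrbGFP groups of 43 and 33 cells the gap was smaller, with 97.7% against 74.8% and 97% against 66.7%, and in the other groups 75% or more of cluster 1 cells stood against 22.7% to 40.8%. Because these genes were chosen for being higher, and Cfb and Gm20547 as well as Ugt1a6a and Ugt1a6b share reads, this is a description of overlap between cells and not a test. Within the PdgfrbGFP group of 43 cluster 1 cells, correlations of log2 levels between 10 of the called genes ran from −0.31 to 0.42 with a median of 0.03 over 45 pairs, and within that of 33 cells from −0.29 to 0.57 with a median of 0.04. Each of these groups comes from 1 plate, and such counts are sparse.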

How the data were processed

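Single cells were sorted into plates with lysis buffer and ERCC spike-ins, and made into Smart-seq2 libraries without molecular identifiers. Raw read counts of each gene were deposited by the authors as 1 table with 46517 genes, 92 ERCC sequences and 1479 cells, of which 105 carry the label of cluster 1. Reads were trimmed, mapped to GRCm38 and counted per gene with featureCounts by the authors, who removed shallow cells, cells with very many genes (as possible doublets), cells rich in ERCC or mitochondrial reads, cells with neither Pdgfra nor Pdgfrb and cells with endothelial or immune signatures. No doublet caller was run here. No strand setting is given in the sources used here, and most rows of the Ugt1a locus, whose genes share exons, held near-equal counts. Other overlapping genes differed more, such as Gm20518 and Dgcr2 with 30494 and 58311 reads. No table column was left without a sample.

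Cells were taken by their cluster label. Counts were summed over the cells of a cluster within a plate and mouse line where at least 3 cells were present, which gave 35 sums in 6 groups. edgeR 4.0.16 in R 4.3.3 (TMM scaling, filterByExpr, quasi-likelihood test, 24 residual degrees of freedom) was fitted with the group as a block, and p-values were adjusted after Benjamini and Hochberg over 14151 genes. The script was run on simulated data whose spread was set smaller than that of the real sums, so that run does not measure the error rate here. Levels were scaled to 500000 endogenous reads in every cell and averaged over cells. Detection was scored after thinning each cell to 50000 endogenous reads, without 6 cells that had fewer, none of them in cluster 1, and shares were given exact Clopper-Pearson 95% intervals. Where no cell was found, the limit given is 3 cells of the total. Depth, genes detected, spike-in ratio and mitochondrial share were compared over groups by an exact permutation test (two-sided, signs flipped). Gene names, coordinates and exon overlaps came from GENCODE M21 for GRCm38, which covered 46005 gene rows. DESeq2 1.42.0 served as an alternative, and Python 3.11.15, numpy 2.4.6, scipy 1.17.1, pandas 2.3.3 and matplotlib 3.10.9 for tables and plots.

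Genes named are, per direction, the 10 calls of largest fold change whose sign was shared by all groups, genes called in all 5 single contrasts, the remaining called genes, and members of fixed lists. Cluster 1 and the lists were chosen with earlier results of these data known.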

Additional observations from a re-analysis of the deposited data

Results flagged for a closer look

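Of 40 sets of 6 group values examined, 5 held a group far from the others, where chance gives about 1 in 20. Cfb and Gm20547, which share reads, had log2 differences of 5.62 and 5.64 in the Acta2GFP group, against 1.84 to 2.23 for Cfb in the other groups. In that group the Cfb level of the other clusters was 63.7 reads per 500000, the lowest of the 6. Tppp3 had a log2 difference of −5.06 in the PdgfrbGFP group of 8 cells, with a level of 2.37 in 8 cluster 1 cells. Fbln2 had −6.12 in the PdgfraGFP group, with a level of 7.20 in 5 cluster 1 cells. Gabrg3 had −1.62 in the Acta2GFP group, where no cluster 1 cell held a read, and was positive in the other 5 groups. These 3 groups hold 5 to 8 cluster 1 cells each. The part of cell number in these values was not tested.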

How the results depend on the processing

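No called gene changed direction under any alternative run. The share of tested genes called against the mean of the 5 clusters, 0.247%, became 2.13% with DESeq2, 0.473% with cells thinned to 50000 reads, 0.0974% with the 5 clusters pooled into 1 sum per group and 0 with sums per mouse line. It lay between 0.113% and 0.296% with 1 group left out. Against clusters 2, 3, 6, 7 and 8 singly, DESeq2 called 17.4%, 1.32%, 2.78%, 1.5% and 3.18%. Of these calls 49.7%, 29.9%, 38.3%, 38.2% and 30.2% were higher, against 33.2%, 46.7%, 50.6%, 56.2% and 27.6% with edgeR. Sums per mouse line gave 0.133%, 0.0147%, 0.0368%, 0.0515% and 0.0147%. Thinning gave 3.35%, 0.253%, 1.16% and 1.1% against clusters 2, 3, 6 and 8, and no filter on low counts 1.08% against cluster 2, where 28023 genes were tested and fewer were called in number as well. Without the block for plate and line, 37 genes were called against the mean, of which 16 were among the 35, and 7.72%, 0.148% and 0.290% against clusters 2, 7 and 8. Leaving out 1 group gave 1.86% to 6.68%, 0.0143% to 0.131%, 0.294% to 0.689%, 0.150% to 0.317% and 0.221% to 0.778%. Genes called against all 5 clusters were 4 with DESeq2, 0 with sums per mouse line, and 0 to 1 with 1 group left out. The causes were not tested. Of the 35 genes, 8 were called in every fit that left out 1 group. With thinned cells 34 of the 35 could be tested and 31 stayed called. Over mouse lines the difference in log2 depth was 0.12 and in genes detected 44.8. With 1 group left out, genes detected differed by −59.6 to 30 (0.7, 7.0 and 1.2 without the PdgfrbGFP groups of 43, 8 and 33 cells) and the log2 spike-in ratio by −0.092 to 0.11 (0.02 without the PdgfrbGFP group of 43 cells). Some groups held only 5 to 9 cluster 1 cells, and the part of that number in the precision was not tested.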
